A study of Homo sapiens with 16 samples.

Results

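Albumin, alpha-fetoprotein and 8 other plasma carrier and protease inhibitor genes (ALB, AFP, AHSG, TTR, AMBP, SERPINA1, RBP4, AGT, VTN and GC) were followed through 16 polyA+ RNA libraries of a gut-liver chip. The 10 genes were taken by name, each matching exactly 1 of the 60623 genes listed. The rule that picks them uses no measured value, but they were chosen with earlier results of these data known. HepG2, from a hepatocellular carcinoma, stood for the liver, and Caco-2, from a colorectal adenocarcinoma, for the gut. Each line was kept in its own chamber, either alone (mono-culture) or connected in a closed circuit with the other line (co-culture), and each was harvested separately. The study describes circulating medium for lines grown alone as well. Both cultures were kept without fatty acids (control) or with free fatty acids (FFA, 1 mM in total, palmitic to oleic acid 1:2, given with bovine serum albumin), which gives 8 groups of 2 replicates. No genetic change separated the groups of a line. The labels give 1 day of FFA exposure and the methods of the study 7 days. Both lines are tumour lines and not primary hepatocytes or enterocytes. The methods of the study say that sequencing experiments were repeated independently, while the labels do not say whether the replicates of a group are these repeats. If they are not, the p-values measure only the spread between these libraries, which may be technical.

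Plasma carriers are made mainly by hepatocytes and enter the blood through the secretory route. Albumin binds fatty acids, bilirubin and many drugs. Alpha-fetoprotein is its fetal relative, encoded beside it, which falls silent after birth and returns in many liver tumours. Liver-enriched transcription factors of the HNF4, FOXA and C/EBP families act on the promoters of these genes. Caco-2 cells left to differentiate resemble absorptive enterocytes, and fetal enterocytes make several of the same plasma proteins.

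ALB (ENSG00000163631, chr4:73397114-73421482) and AFP (ENSG00000081051, chr4:73431138-73456174) are transcribed in the same direction, with 9656 bases between them. Gene positions here are those of GENCODE 44 on GRCh38. The promoters of these neighbours are shown because both were among the members that differed most between the lines. The TATA box, searched as the letters TATAAA on either strand within 250 bases upstream of the start, was found in 3 of the 8 members with a RefSeq promoter (AFP, AGT and RBP4) and in 10.7% of 35116 RefSeq promoters. GC and TTR had no entry. A match describes the letters and is not evidence of binding. Other spellings of the box were not searched, so a promoter without these letters is not shown to lack the box. The RefSeq starts of ALB and AFP lie inside the GENCODE bounds given above, and the 9656 bases are counted between those outer bounds. The 150 bases just before each start are given 5′ to 3′ (RefSeq, GRCh38.p14), with TATAAA in capitals, at chr4:73404137-73404286 (+) for ALB, where these letters did not occur, and chr4:73436071-73436220 (+) for AFP, where they began at position -29 from the start.
ALB: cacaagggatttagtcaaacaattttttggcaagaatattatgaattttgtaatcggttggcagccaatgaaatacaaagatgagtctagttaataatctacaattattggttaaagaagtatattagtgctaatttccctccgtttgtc
AFP: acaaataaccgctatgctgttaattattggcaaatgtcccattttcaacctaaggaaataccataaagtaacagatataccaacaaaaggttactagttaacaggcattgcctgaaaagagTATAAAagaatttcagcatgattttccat

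Depth differed between libraries, from 49634 reads (HepG2 co-culture FFA replicate 2) to 1657430 reads, so that 1 read stood for 20.1 to 0.603 CPM, a unit that divides each gene's reads by the depth of its library, and 3 reads, taken as the floor, for 60.4 to 1.81 CPM. HepG2 co-culture FFA replicate 1 was the next shallowest, with 147096 reads. Of the 13 hepatocyte markers other than the members, all had reads in HepG2, where their sum was 21402 to 27404 CPM, against 1703 to 3008 CPM in Caco-2. Of 16 intestinal markers, 7 had no read in HepG2, among them CDH17, which was 18.5 to 49.5 CPM in Caco-2. Their sum was 94.6 to 223 CPM in HepG2 and 185 to 311 CPM in Caco-2, whose CDX1 and ISX had none. Of 13 stromal, endothelial and blood markers, 9 had no read in HepG2 and 5 none in Caco-2. Between the lines, where 30.3% of all genes were called, 10 of the 13 hepatocyte markers were called higher in HepG2 and 1 lower. FGA, FGG and FGB, the fibrinogen chains, had differences of 7.87, 6.23 and 5.92 (log2, limma). Of 13 intestinal markers tested 8 were lower in HepG2 and 2 higher. The latter were FABP2 (9.45 against 0.247 CPM on average) and ANPEP (11.3 against 1.87 CPM), both enterocyte markers. The lower ones included PHGR1 at -5.75 and CDH17, an intestinal cadherin, at -5.15. Of 7 tested markers of the last list 1 was higher in HepG2, LYZ (5.76), and 3 were lower. Most markers thus followed the labels of the lines, with FABP2 and ANPEP among the exceptions. The hepatocyte marker APOC3 averaged 616 CPM in HepG2 and 1001 CPM in Caco-2. TFF3, the most abundant intestinal marker in Caco-2, averaged 118 CPM in HepG2 and 102 CPM in Caco-2. Hepatocyte markers were also present in Caco-2.

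**Figure D1:**
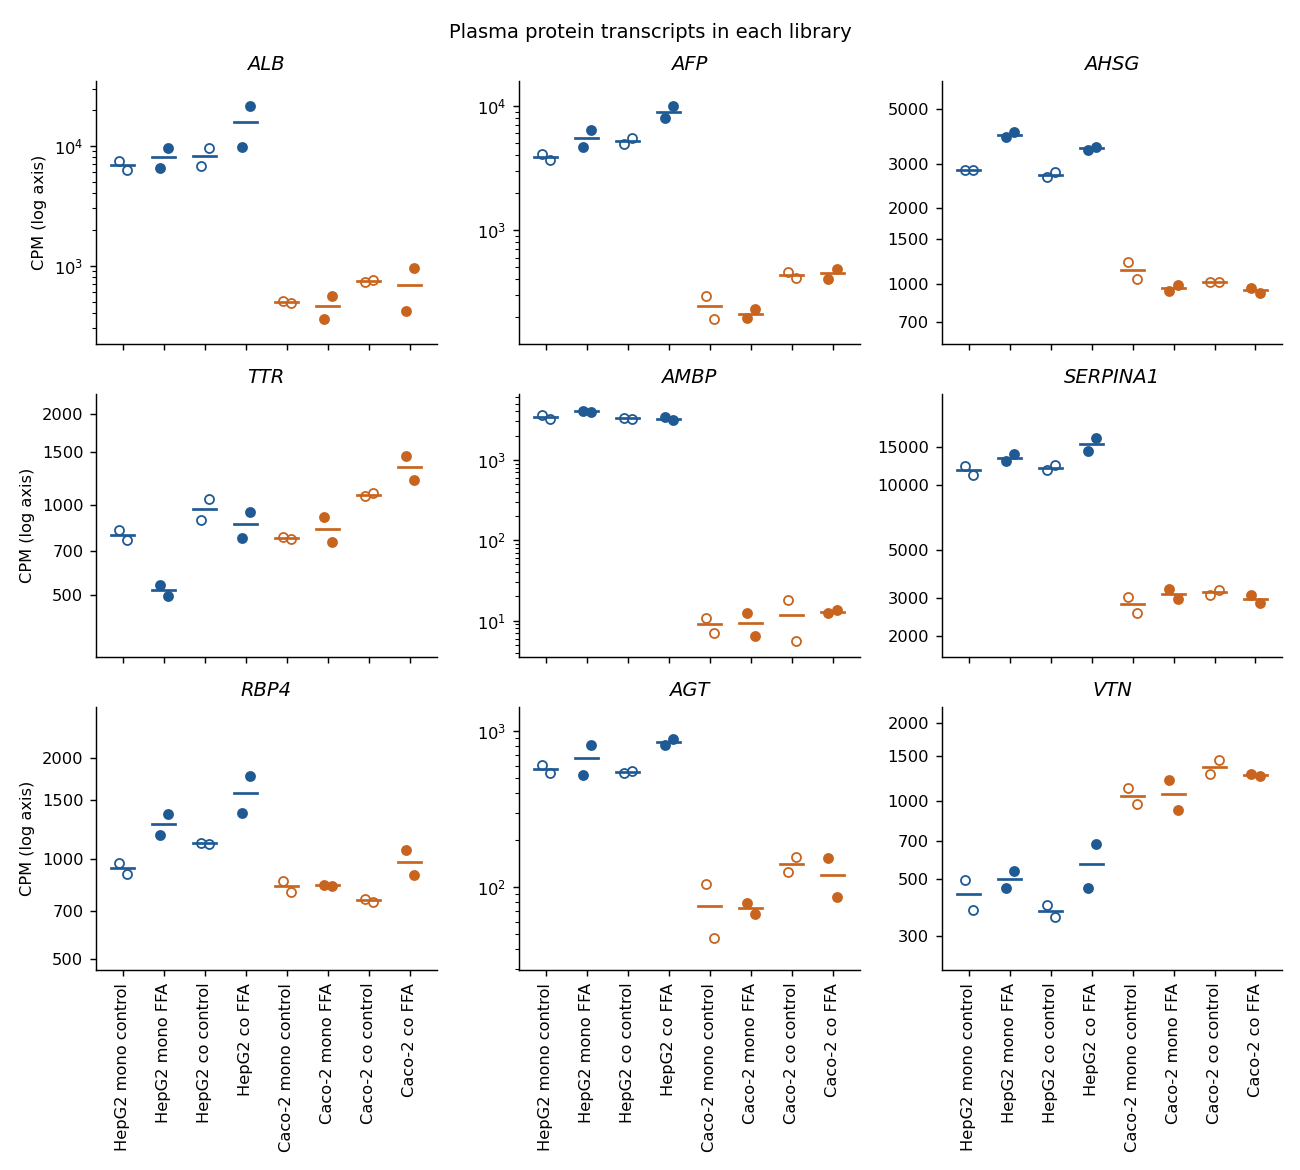
Level of 9 members in CPM (log axis, a different range in each panel) in every library, by group on the horizontal axis. Points are libraries (open for control, filled for FFA), bars are group means, HepG2 is blue and Caco-2 orange. GC is left out because it had 1 read in all. ALB, AFP, AHSG, AMBP, SERPINA1 and AGT do not overlap between the lines and are higher in HepG2, VTN is higher in Caco-2, and TTR and RBP4 overlap.

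In HepG2 the members together took 2.98% to 5.91% of all reads of a library, and in Caco-2 0.688% to 0.891%. Averaged over the 4 conditions, 7 of the 10 members were higher in HepG2, 2 were lower and GC was not called (limma on log2(CPM + 1), Benjamini-Hochberg adjusted p under 0.05 over 17544 genes). Of all genes tested, 30.3% were called. Their median difference was -0.16 on the log2 scale against 1.89 for the members. Fewer cells making a transcript and less transcript per cell cannot be told apart in such bulk libraries.

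The difference was widest for AMBP (chr9:114060127-114078328), whose product is cut into the small carrier alpha-1-microglobulin and the protease inhibitor bikunin. AMBP ranged from 3123 to 4099 CPM over the 8 HepG2 libraries (median 3355) and from 5.65 to 17.8 CPM in Caco-2 (median 11.6), where it rested on 2 to 12 reads a library. The difference was 8.29 ± 0.19 (log2, SE; adjusted p = 1.05e-12). AFP ranged from 3664 to 9913 CPM in HepG2 (median 5197) and from 194 to 489 CPM in Caco-2 (median 349.6), a difference of 4.15 ± 0.09 (adjusted p = 1.05e-12). ALB ranged from 6267 to 21658 CPM in HepG2 (median 8501) and from 356 to 965 CPM in Caco-2 (median 535), a difference of 3.97 ± 0.19 (adjusted p = 1.31e-09). On the linear scale the means of AFP and ALB were 17.6-fold and 16.2-fold higher in HepG2. The libraries of the lines did not overlap for any of these genes, and both ALB and AFP were present in every Caco-2 library with at least 144 and 79 reads.

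AGT (chr1:230690776-230745576), the precursor of the angiotensins, ranged from 523 to 886 CPM in HepG2 and from 47.0 to 155 CPM in Caco-2 (difference 2.75 ± 0.17, adjusted p = 1.86e-08). SERPINA1 (chr14:94376747-94390693), which encodes alpha-1-antitrypsin, the main plasma inhibitor of neutrophil elastase, ranged from 11189 to 16561 CPM in HepG2 and from 2564 to 3324 CPM in Caco-2 (difference 2.12 ± 0.05, adjusted p = 6.24e-13). It took more reads than any other member in each Caco-2 library. AHSG (chr3:186613060-186621318), encoding the mineral-binding protein fetuin-A, ranged from 2656 to 4024 CPM in HepG2 and from 919 to 1218 CPM in Caco-2 (difference 1.67 ± 0.04, adjusted p = 1.79e-12). These 3 genes did not overlap between the lines. Of all genes tested, 4.30% were higher in every HepG2 library than in every Caco-2 library, and 6 of the members were.

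RBP4 (chr10:93591687-93601744), the plasma carrier of retinol, and TTR (chr18:31557009-31598833), transthyretin, which binds RBP4 and thyroxine, were close between the lines. RBP4 ranged from 903 to 1773 CPM in HepG2 and from 743 to 1059 CPM in Caco-2, a difference of 0.51 ± 0.06 (adjusted p = 2.28e-05) with overlapping libraries. TTR ranged from 498 to 1047 CPM in HepG2 and from 752 to 1457 CPM in Caco-2, and was lower in HepG2 by a difference of -0.36 ± 0.07 (adjusted p = 0.000956), again with overlap. VTN (chr17:28367284-28373091), vitronectin, an adhesion protein of plasma and matrix that stabilises the inhibitor PAI-1, was lower in HepG2, at 355 to 685 CPM against 927 to 1441 CPM in Caco-2. Its difference was -1.34 ± 0.09 (adjusted p = 7.69e-08), and the libraries did not overlap, as for 5.97% of all genes tested that were lower in every HepG2 library. The Caco-2 mean of VTN was 2.51-fold that of HepG2.

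GC, the vitamin D-binding protein (chr4:71741696-71804041), had no read among the 4953377 of the 8 HepG2 libraries. A count of 0 in all of them allows up to 0.606 CPM (3 reads). In Caco-2 it had 1 read among 4888028, in mono-culture FFA replicate 1, where 1 read was 2.48 CPM. No difference was detectable at this depth. The neighbouring family member AFM, which starts 25571 bases beyond AFP, averaged 0.199 CPM in HepG2 and 0.129 CPM in Caco-2.

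**Figure D2:**
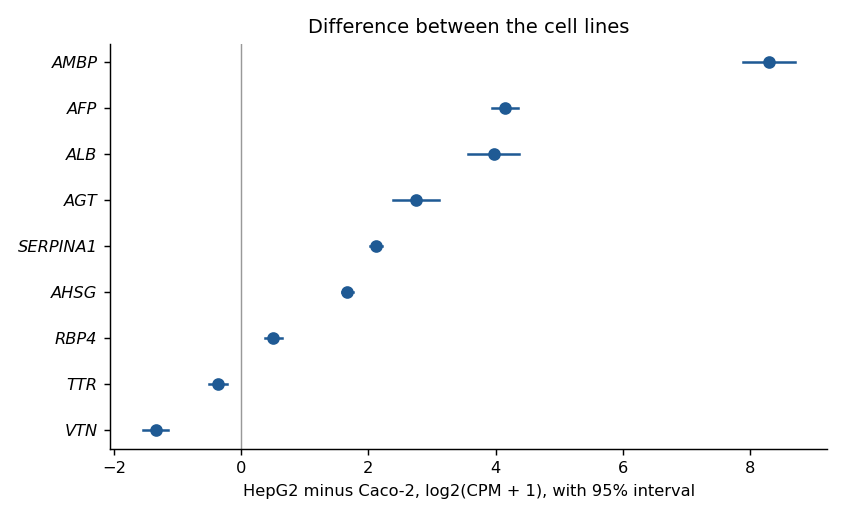
Difference between HepG2 and Caco-2 in log2(CPM + 1), averaged over the 4 conditions, for 9 members, with 95% intervals from the fit. Filled points passed an adjusted p of 0.05. The differences run from 8.29 for AMBP to -1.34 for VTN, and TTR lies just below 0.

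Against the FFA-free controls, HepG2 in mono-culture had a lower TTR and small positive values for the other members, but no member was called (0 of 9 tested, as for 0% of all 14430 genes). At an unadjusted p under 0.05 there were 6 members (6.26% of all genes). TTR was 822 and 765 CPM in control and 542 and 498 CPM with FFA (difference -0.61 ± 0.14, adjusted p = 0.712 by limma). Both FFA libraries of TTR lay under both controls, as for 12.3% of all genes. AHSG was 2848 and 2844 CPM in control and 3837 and 4024 CPM with FFA (0.47 ± 0.07, adjusted p = 0.712 by limma). AFP was 4106 and 3664 CPM in control and 4692 and 6396 CPM with FFA (0.50 ± 0.15, adjusted p = 0.712 by limma). Both FFA libraries lay above both controls for AHSG, AFP, RBP4, AMBP and SERPINA1, against 20.2% of all genes. ALB overlapped, at 7469.6 and 6267 CPM in control and 6555 and 9536 CPM with FFA.

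TTR was lower with FFA under each of the 7 other scalings and count models run, and edgeR, DESeq2 and limma-voom, each on recovered reads, called it as the only member. The other 8 members had positive values in the main fit, in DESeq2 and under the 4 rescalings of CPM, while edgeR and limma-voom, count models that also use TMM scaling, left AFP, AHSG and RBP4 above 0 and 6 of the 9 members below.

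In co-culture no member of HepG2 was called with FFA either (0 of 9, and 0% of all genes). At an unadjusted p under 0.05 there were 7 members (15.9% of all genes), each with both FFA libraries above both controls (17.4% of all genes). The FFA libraries are the 2 shallowest of the series. AFP was 4914 and 5481 CPM in control and 7974 and 9913 CPM with FFA (0.78 ± 0.15, adjusted p = 0.118 by limma). ALB was 6814 and 9533 CPM in control and 9810.1 and 21658 CPM with FFA (0.85 ± 0.34, adjusted p = 0.294 by limma). The 2 FFA libraries of ALB differed beyond counting error, with exact 95% intervals of 9313 to 10327 and 20396 to 22978 CPM. AGT, VTN, RBP4, SERPINA1 and AHSG had differences of 0.63, 0.59, 0.49, 0.35 and 0.35. AMBP (3332 and 3229 against 3379 and 3123 CPM) and TTR (889 and 1047 against 775 and 947 CPM) overlapped. These directions were not stable. The median of all genes was -0.26 in this contrast, and under edgeR and limma-voom 7 of the 9 members were below 0, among them SERPINA1, RBP4 and AHSG. Median-ratio rescaling of CPM put AHSG at -0.07 and SERPINA1 at -0.06. AMBP and TTR were called lower by edgeR, DESeq2 and limma-voom, and SERPINA1 by limma-voom, whereas quantile normalization called AFP, AHSG, RBP4 and SERPINA1 higher. Leaving out FFA replicate 1 changed the calls, but the group is then the shallowest library alone, assumed to vary like the others.

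**Figure D3:**
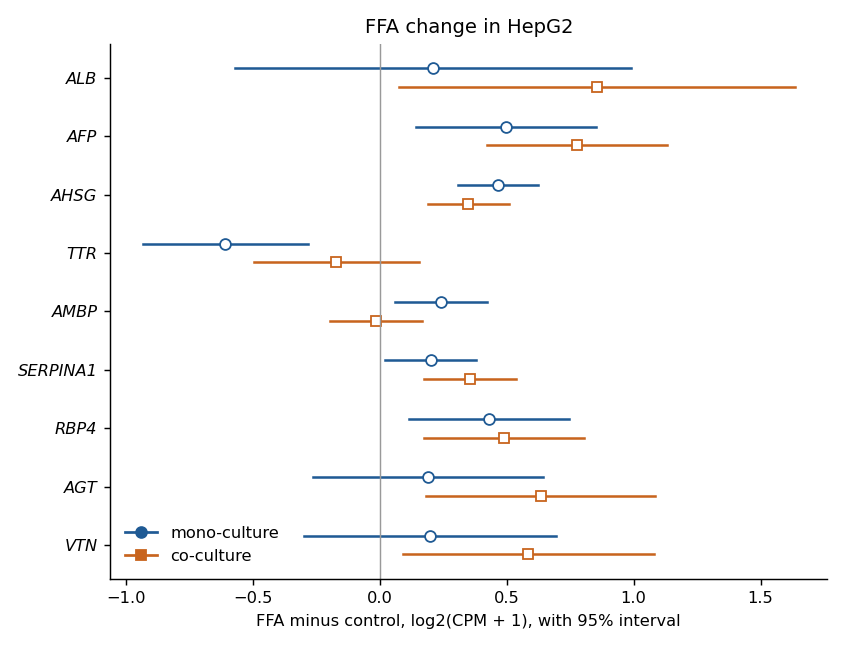
Difference with FFA in HepG2, in log2(CPM + 1), for 9 members in mono-culture (circles) and co-culture (squares), with 95% intervals. Open symbols did not pass an adjusted p of 0.05, and none did. TTR in mono-culture lies at -0.61, and the co-culture values of the other members except AMBP lie between 0.35 and 0.85 under this scaling.

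Averaged over both cultures, AHSG was the only member called in HepG2, where 0.0762% of all genes were. It was 2656 to 2848 CPM in the 4 control libraries and 3413 to 4024 CPM in the 4 FFA libraries (0.41 ± 0.05, adjusted p = 0.0372 by limma). This call depended on the scaling and on single libraries. The value was 0.12 after median-ratio rescaling, 0.13 in DESeq2, and -0.06 in both edgeR and limma-voom, none of them called, and 0.55 after quantile normalization, which called 5 members, all higher. The call was lost without mono-culture control replicate 1 (adjusted p = 0.180), co-culture control replicate 2 (0.0853) or co-culture FFA replicate 2 (0.0751). AFP (0.64 ± 0.11, adjusted p = 0.0963) and RBP4 (0.46 ± 0.10, adjusted p = 0.139) did not pass, and TTR was at -0.39 ± 0.10 (adjusted p = 0.192), all by limma. TTR stayed below 0 in each of 12 other settings, from -0.86 to -0.36, and was called lower in 4 of them. The interaction test called no member for a different FFA response in the 2 cultures (limma, 0 of 9, and 0% of all genes). At an unadjusted p under 0.05 there was 1 member (AMBP), and edgeR, DESeq2 and limma-voom called 0. This does not show that the cultures respond alike.

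Ratios between members within a library do not depend on the scaling, and are given as a description. In HepG2 mono-culture the log2 ratio of TTR to SERPINA1 reads was -3.90 and -3.87 in control and -4.58 and -4.81 with FFA. In co-culture it was -3.73 and -3.57 in control and -4.22 and -4.13 with FFA. TTR thus took fewer reads relative to SERPINA1 in each FFA library than in each control library of HepG2. How many other pairs of genes separate in this way was not counted. The ratio of AHSG to SERPINA1 was -2.11 and -1.98 in mono-culture control, -1.76 and -1.80 in mono-culture FFA, -2.15 in both co-culture controls, and -2.08 and -2.23 in co-culture FFA. AHSG therefore stood above its controls relative to SERPINA1 in mono-culture, while in co-culture the groups overlapped. AMBP to SERPINA1 was lowest in co-culture FFA, at -2.09 and -2.41, against -1.66 to -1.94 in the other 6 libraries. The ratio of AFP to ALB ranged from -1.13 to -0.30, both extremes being the replicates of co-culture FFA.

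**Figure D4:**
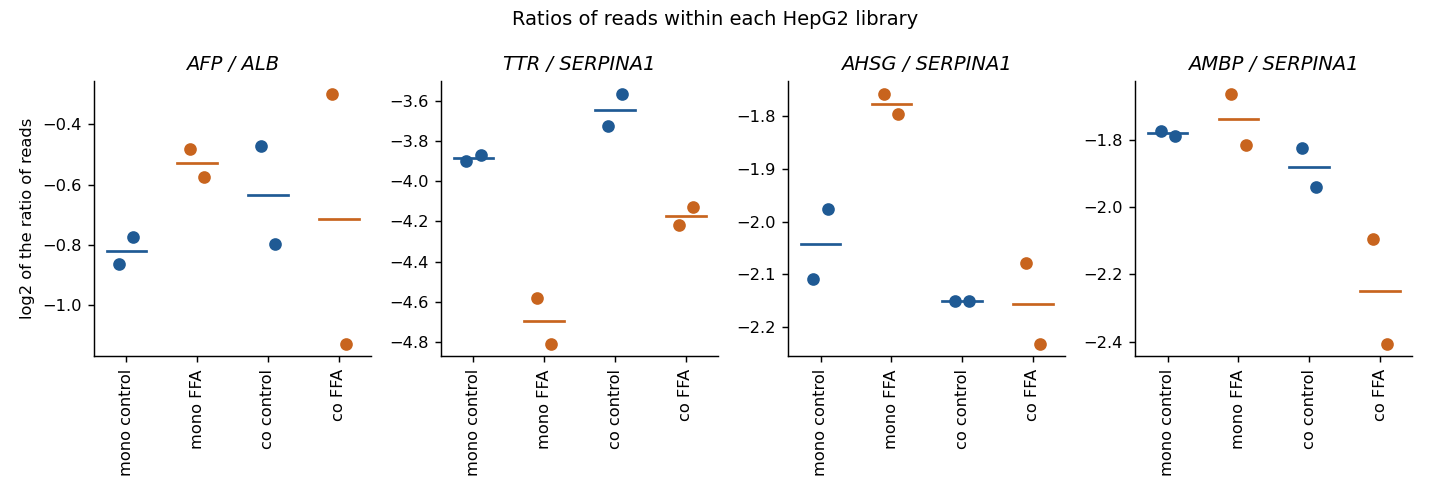
Log2 ratio of the reads of 2 members within each HepG2 library, by group (blue control, orange FFA), with bars at the mean of 2 libraries. Axes do not start at 0 and differ between panels. TTR relative to SERPINA1 is lower in all 4 FFA libraries, at -4.81 to -4.13, than in the 4 controls, at -3.90 to -3.57.

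In Caco-2 the FFA contrasts called no member. In mono-culture 0 of 10 were called (0.00647% of all 15454 genes) and 0 had an unadjusted p under 0.05 (5.80% of all genes). AHSG was 1218 and 1040.0 CPM in control and 929.8 and 987 CPM with FFA (-0.23, 95% interval -0.47 to 0.01). In co-culture 0 were called (0% of all genes) and 2 had an unadjusted p under 0.05 (4.88% of all genes). These were RBP4, at 759 and 743 CPM in control and 1059 and 896 CPM with FFA (0.37 ± 0.12, adjusted p = 0.862 by limma), and TTR, at 1068 and 1094 against 1457 and 1212 CPM (0.30 ± 0.13, adjusted p = 0.862 by limma). Averaged over culture 0 were called (0% of all genes), with the same 2 genes under an unadjusted 0.05 (4.85% of all genes). edgeR, DESeq2 and limma-voom called 0 members in each of these 3 contrasts. The interaction of FFA and culture called 0 by these tools and by limma (0% of all genes), with 1 (RBP4) under an unadjusted 0.05.

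The FFA response differed between the lines for AHSG. Its change in HepG2 minus that in Caco-2 was 0.58 ± 0.08 (adjusted p = 0.0112 by limma), the only member called (0.0912% of all genes). AHSG had a value of -0.17 in Caco-2 (95% interval -0.34 to 0.00). The difference was 0.30 after median-ratio rescaling (adjusted p = 0.185) and 0.30 in DESeq2 (adjusted p = 0.00845), and turned to -0.07 in edgeR and -0.08 in limma-voom. It was not called without HepG2 mono-culture control replicate 1 (adjusted p = 0.0844) or co-culture control replicate 2 (adjusted p = 0.102). TTR had the opposite sign, at -0.59 ± 0.14 (adjusted p = 0.0958), and was called lower under edgeR, DESeq2, limma-voom and median-ratio rescaling.

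Connection to HepG2 went with higher AFP and TTR in Caco-2. Averaged over treatment, 2 of the 10 members were called, both higher (0.453% of all genes were called). AFP was 293, 194, 195 and 229.8 CPM in the mono-culture libraries (control, then FFA) and 456, 413, 406 and 489 CPM in co-culture (0.97 ± 0.13, adjusted p = 0.00538 by limma). TTR was 783, 769, 913 and 752 CPM in mono-culture and 1068, 1094, 1457 and 1212 CPM in co-culture (0.58 ± 0.09, adjusted p = 0.0114 by limma). Every co-culture library lay above every mono-culture library for these genes and for VTN, as for 4.25% of all genes. VTN was 927 to 1204 CPM in mono-culture and 1255 to 1441 CPM in co-culture (0.31 ± 0.09, adjusted p = 0.184 by limma). AGT (0.82 ± 0.24, adjusted p = 0.175) and ALB (0.54 ± 0.20, adjusted p = 0.316) overlapped, ALB at 356 to 561 CPM in mono-culture and 421 to 965 CPM in co-culture. AHSG (-0.09), SERPINA1 (0.05) and RBP4 (0.04) had values near 0, under the median of all genes at 0.14. AFP and TTR were higher under every scaling and count model run and called in 10 of 12 other settings, the exceptions being a pseudocount of 0.1 and a constant prior variance. With 1 library left out, AFP stayed called only without mono-culture control replicate 1, and TTR only without mono-culture FFA replicate 1 or co-culture FFA replicate 2. Without each of the other libraries the adjusted p of AFP was 0.0738 to 0.139 and that of TTR 0.0602 to 0.134.

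The treatments gave the same direction separately. Without FFA 0 members were called (0.0971% of all genes), with AFP at 0.86 ± 0.19 (adjusted p = 0.145 by limma) and TTR at 0.48 ± 0.13 (adjusted p = 0.258 by limma) among 4 with an unadjusted p under 0.05 (10.3% of all genes). DESeq2 and limma-voom called AFP and edgeR called 0. With FFA 0 were called (0.0971% of all genes), AFP standing at 1.07 ± 0.19 (adjusted p = 0.0558 by limma) and TTR at 0.68 ± 0.13 (adjusted p = 0.0698 by limma), the 2 members with an unadjusted p under 0.05 (7.78% of all genes). edgeR, DESeq2 and limma-voom each called both.

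Transcripts of HepG2 were looked for in the co-culture Caco-2 libraries. AFP in Caco-2 was 3.52% to 7.54% of its level in the matching HepG2 group in mono-culture and 4.54% to 8.77% in co-culture. AMBP, at 3123 to 3379 CPM in the co-culture HepG2 libraries, was at 5.65 to 17.8 CPM in the co-culture Caco-2 libraries, which is 0.172% to 0.544% of the mean of the matching HepG2 group, against 0.159% to 0.32% in mono-culture. TTR was more abundant in co-culture Caco-2 than in co-culture HepG2, at 110.3% to 169% of the HepG2 mean. The 13 hepatocyte markers summed to 1703 to 2334 CPM in Caco-2 mono-culture and 2456 to 3008 CPM in co-culture. Averaged over treatment, all of the 12 tested had values above 0, and so was the median of all genes. Of the 12, 1 was called (0.453% of all genes were called). This was APOC3 (an apolipoprotein that slows triglyceride clearance; 0.75 ± 0.13, adjusted p = 0.0259 by limma), at 565 to 1051 CPM in mono-culture and 1108 to 1469 CPM in co-culture. APOC3 was also at 136% to 246% of its HepG2 level in the co-culture libraries. The intestinal markers summed to 185 to 218 CPM in mono-culture and 254 to 311 CPM in co-culture. Among them TFF3, a mucosal trefoil peptide, was called averaged over treatment, where 0.453% of all genes were (0.82 ± 0.17, adjusted p = 0.0478 by limma). The part of these transcripts in the change of AFP and TTR was not tested.

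**Figure D5:**
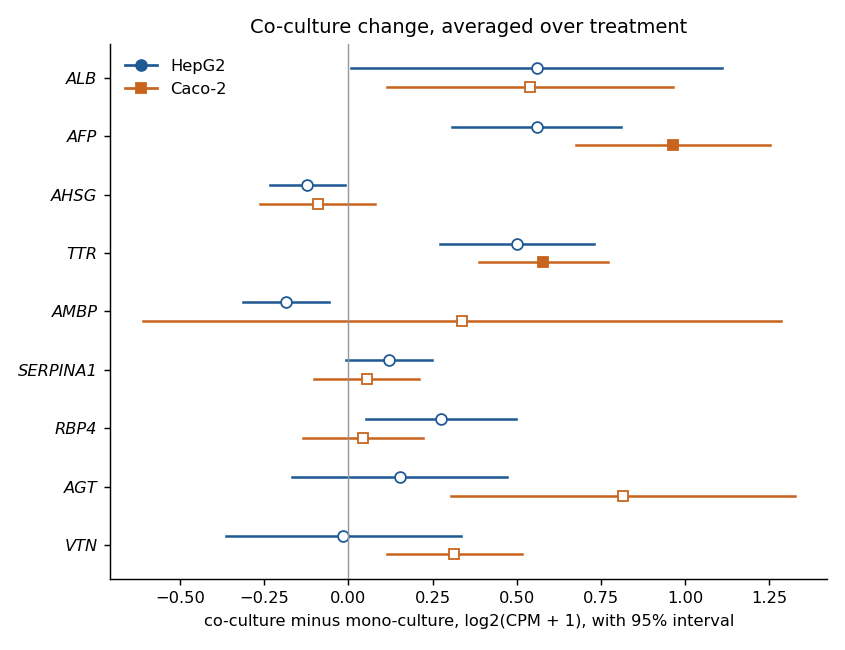
Difference between co-culture and mono-culture in log2(CPM + 1), averaged over treatment, for 9 members in HepG2 (circles) and Caco-2 (squares), with 95% intervals. Filled symbols passed an adjusted p of 0.05, which were AFP (0.97) and TTR (0.58) in Caco-2.

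In HepG2 co-culture called no member. Without FFA 0 of 9 were called (0% of all genes), with 1 at an unadjusted p under 0.05 (2.61% of all genes), AFP, at 4106 and 3664 CPM in mono-culture and 4914 and 5481 CPM in co-culture (0.42 ± 0.15, adjusted p = 1 by limma). edgeR and DESeq2 called 0 and limma-voom called AFP. With FFA 0 were called (0% of all genes) and 6 had an unadjusted p under 0.05 (14.7% of all genes). TTR was 542 and 498 CPM in mono-culture and 775 and 947 CPM in co-culture (0.72 ± 0.14, adjusted p = 0.16 by limma). AMBP was 4099 and 3973 CPM in mono-culture and 3379 and 3123 CPM in co-culture (-0.31 ± 0.08, adjusted p = 0.190 by limma). Here edgeR called 0, DESeq2 called AHSG and AMBP lower, and limma-voom AMBP. Averaged over treatment 0 were called (0% of all genes) and 6 had an unadjusted p under 0.05 (7.72% of all genes), among them TTR at 0.50 ± 0.10 and AFP at 0.56 ± 0.11 (both adjusted p = 0.457 by limma). DESeq2 called AFP higher with AHSG and AMBP lower, limma-voom called AFP and ALB higher with AMBP lower, and edgeR called 0. Leaving out co-culture FFA replicate 1 changed the limma calls, but that group is then the shallowest library alone.

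The co-culture change did not differ detectably between the lines. By limma 0 of 10 members were called for the difference (0.0969% of all genes) and 0 had an unadjusted p under 0.05, edgeR called AGT lower, and DESeq2 and limma-voom called 0. The difference for AFP was -0.41 (95% interval -0.81 to 0.00) and that for TTR -0.08 (95% interval -0.37 to 0.21). These intervals do not show that the lines respond alike.

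Most other genes of the same class were also higher in HepG2. Of 30 further plasma carrier and inhibitor genes, 27 were tested, of which 20 were higher and 1 lower in HepG2 (30.3% of all genes were called). Their median difference was 3.40. TF, transferrin, which carries iron, averaged 1428 CPM in HepG2 and 2.49 CPM in Caco-2 (8.71 ± 0.27). SERPINA3, an inhibitor of chymotrypsin-like proteases, averaged 889.7 and 1.87 CPM (8.49 ± 0.19), and A2M, a broad protease trap, 628 and 2.61 CPM (7.89 ± 0.43). All 3 lay near the floor in Caco-2. No gene of this list was called for FFA or co-culture within a line.

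Transcription factors of the liver were sparse. Of 18 genes 15 were tested between the lines, 2 were higher in HepG2 and 4 lower (30.3% of all genes were called). NR1H4, the bile acid receptor FXR, averaged 18.7 CPM in HepG2 and 2.21 CPM in Caco-2 (2.98 ± 0.50, adjusted p = 0.000368). HNF4A averaged 3.85 and 12.1 CPM and was lower in HepG2 (-1.64 ± 0.49, adjusted p = 0.02), as was CEBPA at 10.3 and 19.8 CPM (-1.20 ± 0.39, adjusted p = 0.0302). PROX1 had no read in Caco-2 and averaged 4.65 CPM in HepG2. CEBPB averaged 10.3 and 8.90 CPM. These levels were within a few reads in the shallow libraries, and none was called within a line.

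Receptors and partners of the members numbered 23, of which 18 were tested, with 5 higher and 4 lower in HepG2 (all genes, 30.3% called). ASGR1, a subunit of the asialoglycoprotein receptor that clears desialylated plasma proteins, averaged 477 CPM in HepG2 and 30.2 CPM in Caco-2, and its partner ASGR2 302 and 90.4 CPM, both without overlap. FCGRT, which encodes the Fc receptor that rescues albumin and IgG from degradation, averaged 98.3 and 51.1 CPM (0.86 ± 0.14). RBP2, the cellular retinol-binding protein of enterocytes, had the reverse difference, 24.7 CPM in HepG2 and 317 CPM in Caco-2 (-3.68 ± 0.21), as did PLAUR, the urokinase receptor that binds vitronectin (2.18 and 26.4 CPM, -3.30 ± 0.42). The albumin receptors of absorptive epithelium, LRP2 and CUBN, had no read in HepG2 and averaged 3.33 and 0.859 CPM in Caco-2.

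Cargo receptors and coat subunits of the early secretory route, which carry new plasma proteins out of the endoplasmic reticulum, were all tested. Of 11 genes 7 were higher and 1 lower in HepG2 (30.3% of all genes were called). LMAN1 and its partner MCFD2, which export clotting factors and alpha-1-antitrypsin, averaged 189.8 and 215 CPM in HepG2 and 50.1 and 80.9 CPM in Caco-2 (1.89 ± 0.18 and 1.42 ± 0.15). TMED10, of the p24 family, averaged 273 and 176 CPM. SEC24A, a COPII coat subunit, was lower in HepG2, at 1.28 against 8.53 CPM (-2.24 ± 0.40). TMED2, another p24 protein, was called higher with FFA in HepG2 averaged over culture (1.596 ± 0.174, adjusted p = 0.0372 by limma), where 0.0762% of all genes were called. TMED2 was 55.0 to 71.9 CPM in the 4 HepG2 control libraries and 146 to 242 CPM in the 4 FFA libraries. The co-culture FFA libraries among them are the shallowest of the series. Whether this call holds under other scalings or with 1 library left out was not examined.

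Over the 8 HepG2 libraries, the patterns nearest to ALB among the 1167 genes that averaged 100 CPM or more were those of SNRPB, POLR2E, PEBP1 and PDHB, with root mean square differences of 0.18 to 0.19 in centred log2(CPM + 1). Nearest to AFP were SLC25A3, RPL13, FGB and ETFA (0.09 to 0.14). ALB and AFP were not among each other's 4. Over all 16 libraries, where the line difference dominates, ALB and AFP were nearest to each other (0.33), followed by ITIH2 and ASGR1 for both. The points share libraries and depth, and this is a description without a test. Both ALB and AFP had their highest HepG2 level in co-culture FFA replicate 2, the shallowest library. The likeness without that library was not computed.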

How the data were processed

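RNA of HepG2 and Caco-2 cells from the chip was sequenced as 16 Nanopore PCR-cDNA libraries, 8 groups of 2 taken from the labels. The submitters' processing notes name minimap2 2.22 and GRCh38. The methods of the study describe, for its mRNA-seq, removal of rRNA, tRNA and mitochondrial reads, STAR, Ensembl annotation and TPM from RSEM, but do not say whether these steps cover the Nanopore libraries. Mitochondrial genes held 2.73% to 10.6% of the reads here. The values deposited by the authors, 1 file per library, are named TPM, but within a library every low value was a whole multiple of 1 step (tolerance 0.1 read), with no gene length in it, so they were treated as CPM and the reads were recovered from the step. Depth was 49634 to 1657430 reads, and intervals and floors cover counting error only.

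The main test was limma 3.58.1 in R 4.3.3 (trended prior, two-sided) on log2(CPM + 1), for genes that averaged 1 CPM or more in any group, with Benjamini-Hochberg adjustment over all genes tested (14430 in HepG2, 15454 in Caco-2, 17544 in both). Fold changes on this scale understate those of low genes. Of the 10 members 9 passed the filter in HepG2, and GC passed in Caco-2 through 1 read. edgeR 4.0.16, DESeq2 1.42.0 and limma-voom on recovered reads, other scalings, pseudocounts, filters and priors, a replicate block and leaving out each library served as alternatives. The fits were tested on simulated data with the same spread setting for every gene and library. The real replicates spread unevenly, so that test does not bear on calls that depend on single libraries. Positions came from GENCODE 44 (60295 of 60623 IDs matched).

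The members, gene lists and alternatives were chosen with earlier results of these data known. All members are named. Of each other list, the 3 genes with the highest mean level (in Caco-2 for the intestinal list) and up to 3 called genes per contrast could be named, and AFM, LRP2, CUBN, CDX1, ISX, FABP2 and ANPEP were added after their values were seen. A gene of the transcription factor list was left out and is not reported here. Likeness is the root mean square difference of centred log2(CPM + 1). Replicates differed beyond sampling noise in every group, so none was counted as the same library.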

Additional observations from a re-analysis of the deposited data

Results flagged for a closer look

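The FFA change of AHSG differed between the lines by the interaction test across all genes. It was 0.41 in HepG2 and -0.17 in Caco-2 on the log2 scale, a difference of 0.58 (limma, adjusted p = 0.0112). AHSG was 2656 to 2848 CPM in the 4 HepG2 controls and 3413 to 4024 CPM with FFA. In Caco-2 it was 1010 to 1218 CPM in the 4 controls and 919 to 987 CPM with FFA. Over the 12 other settings the difference ran from -0.08 to 0.69 and was called in 8, with a negative value in edgeR and limma-voom.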

How the results depend on the processing

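With 2 replicates a group, and 2 HepG2 co-culture FFA libraries shallower than all others, single libraries and the scaling set many calls. The difference between the lines kept its direction and call for the 9 called members in 13 other settings and 16 fits with 1 library left out, except TTR, not called with a constant prior variance (adjusted p = 0.0951). Over all 2048 values of the members under other settings, 73 became called, 11 lost their call and 8 turned with a call on either side, and 151 more changed sign without a call. Of 1534 with 1 library left out, 36 became called, 18 lost their call and 70 more changed sign without a call. The cause of the changes below was not tested.

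Values that turned, with a call in the main or the other setting, were SERPINA1 for HepG2 FFA in co-culture (-0.32 by limma-voom), AHSG for HepG2 FFA averaged over culture (-0.0615 by edgeR, -0.0606 by limma-voom), SERPINA1 and AMBP for the same contrast (-0.19 and -0.34 by limma-voom), and the line difference of the FFA change for AHSG (-0.0720 by edgeR, -0.0798 by limma-voom) and SERPINA1 (-0.41 by limma-voom).

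Members called moved as follows. For HepG2 FFA in mono-culture, edgeR, DESeq2 and limma-voom gave 1 each against 0. In co-culture quantile normalization gave 4, all higher, and edgeR 2, DESeq2 2 and limma-voom 3, all lower, against 0. Averaged over culture, against 1, pseudocount 0.1 gave 0, constant prior variance 0, quantile normalization 5 (all higher), DESeq2 2 (1 higher, 1 lower) and limma-voom 3 (all lower). For HepG2 co-culture without FFA limma-voom gave 1. With FFA quantile normalization gave 1, DESeq2 2 and limma-voom 1. Averaged over treatment quantile normalization gave 1, DESeq2 3 and limma-voom 3, each against 0. For Caco-2 co-culture without FFA, no filter gave 1, a minimum mean of 10 CPM 2, DESeq2 1, limma-voom 1 and only the 2 groups compared 3, against 0. With FFA, against 0, no filter, a minimum mean of 10 CPM, quantile normalization, edgeR, DESeq2 and limma-voom gave 2 each, and leaving out mitochondrial and rRNA genes or a median-ratio over genes of at least 100 CPM gave 1. Averaged over treatment, against 2, pseudocount 0.1 and constant prior variance gave 0, a minimum mean of 10 CPM 5, and edgeR and limma-voom 4. For the line difference of the FFA change, against 1, quantile normalization, DESeq2 and limma-voom gave 2 and constant prior variance 0. For that of the co-culture change edgeR gave 1 against 0.

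With 1 library left out, where the lone library of a group is assumed to vary like the others, the counts ran from 0 to 6 for HepG2 FFA in co-culture and averaged over culture, 0 to 5 for HepG2 co-culture with FFA and 0 to 4 averaged over treatment, the highest without co-culture FFA replicate 1. They ran from 0 to 1 for the 3 FFA contrasts, co-culture with FFA, co-culture averaged and the interaction in Caco-2, from 9 to 10 between the lines, from 0 to 3 for the line difference of the FFA change and from 0 to 1 for that of the co-culture change. They stayed at 0 in HepG2 FFA in mono-culture, HepG2 co-culture without FFA, the HepG2 interaction and Caco-2 co-culture without FFA. Without Caco-2 mono-culture FFA replicate 2, GC was called on its 1 read.

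The labels do not say what a shared replicate number marks, and a group holds only 2. Each library's deviation from its group mean was taken in log2(CPM + 1). These deviations, not the levels, were correlated over genes between same-numbered libraries of different groups of a line. Over genes of at least 1 CPM the mean r of the deviations was 0.00866 in HepG2 and 0.0142 in Caco-2. Over genes of at least 100 CPM it was 0.0529 in HepG2 (-0.103 to 0.121) and 0.151 in Caco-2 (-0.0172 to 0.291). With the replicate number as a block (replicate block), Caco-2 co-culture called 1 member without FFA (AFP), 2 with FFA (AFP and TTR) and 3 averaged over treatment (AFP, AGT and TTR), and the block changed no other count of members called. Over all genes it called 210 against 70 in the last contrast.

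Counts over all genes also moved. For HepG2 FFA averaged over culture limma called 11 (8 higher, 3 lower), edgeR 625 (47 higher, 578 lower), DESeq2 344 (48 higher, 296 lower) and limma-voom 2294 (1656 higher, 638 lower). For Caco-2 co-culture averaged over treatment limma called 70 (49 higher, 21 lower), edgeR 294 (149 and 145), DESeq2 91 (32 and 59) and limma-voom 375 (168 and 207).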
